A study of Drosophila melanogaster with 2 samples.

Results

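The genes of the Brahma chromatin remodelling complex examined here were osa, brm, mor, Snr1, Bap55, Bap60, Bap111, Bap170 and polybromo. They are 9 of the 13945 protein-coding genes that the annotation places on the 6 main chromosomes of Drosophila melanogaster. The data were ChIP-seq peak lists from whole embryos aged 1 day of the strain Drgx-GFP, a transgenic line that makes the homeodomain transcription factor Drgx joined to enhanced green fluorescent protein. The precipitating antibody recognised GFP according to the labels' description, while the antibody field of the labels names Drgx. Both libraries were biological replicates of this 1 group, with no control library used here, so whether a peak comes from the tagged protein was not tested. The promoter that drives the fusion and the cells that make it are not stated in the labels or readme texts. In whole embryos, a strong signal from few cells and a weak signal from many cells cannot be told apart.

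The Brahma complex is the fly member of the SWI/SNF family, whose ATPase motor uses the energy of ATP to slide or evict nucleosomes. The motor Brm and its core partners are shared by a form that holds Osa (BAP) and a form that holds Polybromo and Bap170 (PBAP). Several of the genes belong to the trithorax group, which keeps homeotic genes active in the embryo. Each gene was examined with 5 kb either side of its annotated body. A peak belonged to a gene when it overlapped this window by at least 1 bp, so a peak may lie nearer to another gene. The 9 genes were chosen by the measured signal of the osa peak, with the subunit genes of the same complex added to it, so peak numbers, signals and ranks are given as descriptions with no test.

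The windows around 6 summits show the DNA under the strongest peaks of osa, brm, mor and Bap111. Each sequence is the plus strand of 101 bp centred on the summit, the position of highest signal inside a peak, on the dm6 assembly. The osa sequences lie at chr3R:17704376-17704476 inside the non-coding gene lncRNA:CR46035, at chr3R:17703447-17703547 just before that gene, and at chr3R:17700507-17700607 just before lncRNA:CR46036. The brm sequence at chr3L:15982953-15983053 lies between the start sites of brm and Arl1, and the Bap111 sequence at chrX:9152431-9152531 lies downstream of Bap111. The mor sequence at chr3R:15974356-15974456 is the summit of a ranked peak that the thresholded list lacks. The strongest site of osa, brm and Bap111 was shown by rule, and the other 3 windows were added after their values were seen. Capitals mark TAAT or its reverse complement ATTA, the core of homeodomain binding sites.
osa inside CR46035: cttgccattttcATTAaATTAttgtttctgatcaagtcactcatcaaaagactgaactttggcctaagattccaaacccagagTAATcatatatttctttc
osa before CR46035: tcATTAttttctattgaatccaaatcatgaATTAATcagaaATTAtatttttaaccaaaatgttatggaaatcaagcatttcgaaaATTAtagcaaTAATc
osa before CR46036: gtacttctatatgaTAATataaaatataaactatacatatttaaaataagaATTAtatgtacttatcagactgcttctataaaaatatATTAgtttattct
brm start: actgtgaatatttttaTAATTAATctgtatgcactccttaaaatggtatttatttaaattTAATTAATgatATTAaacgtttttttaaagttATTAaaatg
mor upstream: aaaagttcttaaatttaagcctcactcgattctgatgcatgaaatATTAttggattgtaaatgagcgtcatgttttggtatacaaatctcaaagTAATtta
Bap111 downstream: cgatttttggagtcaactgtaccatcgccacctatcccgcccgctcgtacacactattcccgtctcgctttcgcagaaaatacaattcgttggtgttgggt

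TAAT in either orientation, with overlaps counted, occurred 8 times in the brm window and 6 times in the osa window before lncRNA:CR46035. It occurred 3 times in each of the other osa windows, 2 times in the mor window and not at all in the Bap111 window. The brm window and the osa windows before the non-coding genes were rich in A and T. GC content was 16.8% at brm and 32.7%, 21.8% and 16.8% at osa in the order printed, against 50.5% at Bap111. The strongest osa window, with 32.7%, was near the median of 34.7% over all peaks. Over all 17 peaks of the 9 genes, 13 windows held TAAT, against 66.6% of the 8443 peaks of the pooled list and 82.3% of its 1000 strongest. The palindrome TAATTA, which contains both TAAT and ATTA, occurred in 3 of the 17 windows, against 7.97% of all. These 3 were the brm start, a peak at Mtap near Bap55 and a peak at His3.3B near Bap111. The GAGA factor core GAGAG, or CTCTC on the other strand, occurred in 3 of 17, against 13.9% of all. CACGTG, GGTCACAC and TATCGATA, searched on both strands, occurred in none of the 17 and in 0.734%, 0.497% and 0.403% of all peaks. Median GC content was 33.7% over the 17 windows and 34.7% over all peaks. These matches are letters in a window, not bound sites.

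The authors' pooled thresholded list held 8443 peaks, their conservative list 7909, and the thresholded lists of replicates 1 and 2 held 6349 and 5475. No peak in these lists scored under 830, which stands for an irreproducible discovery rate (IDR) of 0.01, a measure of how well peak ranks agree between 2 lists. The matching ranked lists, which keep peaks of any score, held 97308, 96589, 85954 and 77983 peaks. Signal values have no stated scale, so lists were compared by rank and the signals of different lists stand side by side as descriptions. The read depth is unknown. In the pooled list 74.6% of peaks had 1 fixed width of 384 bp, as did 12 of the 17 peaks here, so width was not compared.

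Pooled thresholded peaks lay in the windows of 5 of the 9 genes. There were 5 at osa, 4 at Bap170, 3 each at Bap55 and Bap111 and 2 at brm, while mor, Snr1, Bap60 and polybromo had none. The share of 5 in 9 was near the background, since 55.5% of all protein-coding genes had such a peak. The conservative list had peaks at 6 of the 9, against 54.3% of all genes. Replicate 1 alone had peaks at 5, against 48.7%, and replicate 2 alone at 5, against 44.9%. Without the flanks, 2 of the 9 gene bodies, osa and brm, overlapped a pooled peak, against 22.8% of all coding genes.

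Gene length differs among the 9 and a long window can hold more peaks, so the count was also set beside genes of similar length. Of genes of at least 8000 bp, osa and brm both had a peak, against 74.1% of 2325 genes. Of genes from 3000 to 8000 bp, Bap170 had peaks while mor and polybromo did not, against 62.2% of 2997 genes. Of genes from 1000 to 3000 bp, Bap55 and Bap111 had peaks while Snr1 and Bap60 did not, against 52.1% of 5948 genes. The 17 peaks in 157 kb of windows came to 108 per Mb, against 78.3 per Mb over the windows of all coding genes and 63.1 per Mb over the chromosomes.

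The 17 summits were also placed relative to genes and start sites. Summits lay inside the gene for 6 peaks (5 at osa and 1 at brm), upstream of it for 5 and downstream for 6. By annotation, 10 summits were within 500 bp of a start site of some gene, 5 were in introns, 1 was in the exon of a non-coding RNA and 1 was between genes. Over the whole pooled list 36.8% of summits were in the promoter class and 45.0% in introns. The gene brm had a summit within 500 bp of its own start site, 1 gene of 9, against 20.9% of all coding genes. With 9 genes this count is not read as a difference. The nearest start site of any gene belonged to the complex for 1 of the 17 summits, a weak osa peak. The same share over the windows of all coding genes was not counted, so it is not read as particular to these genes.

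**Figure D1:**
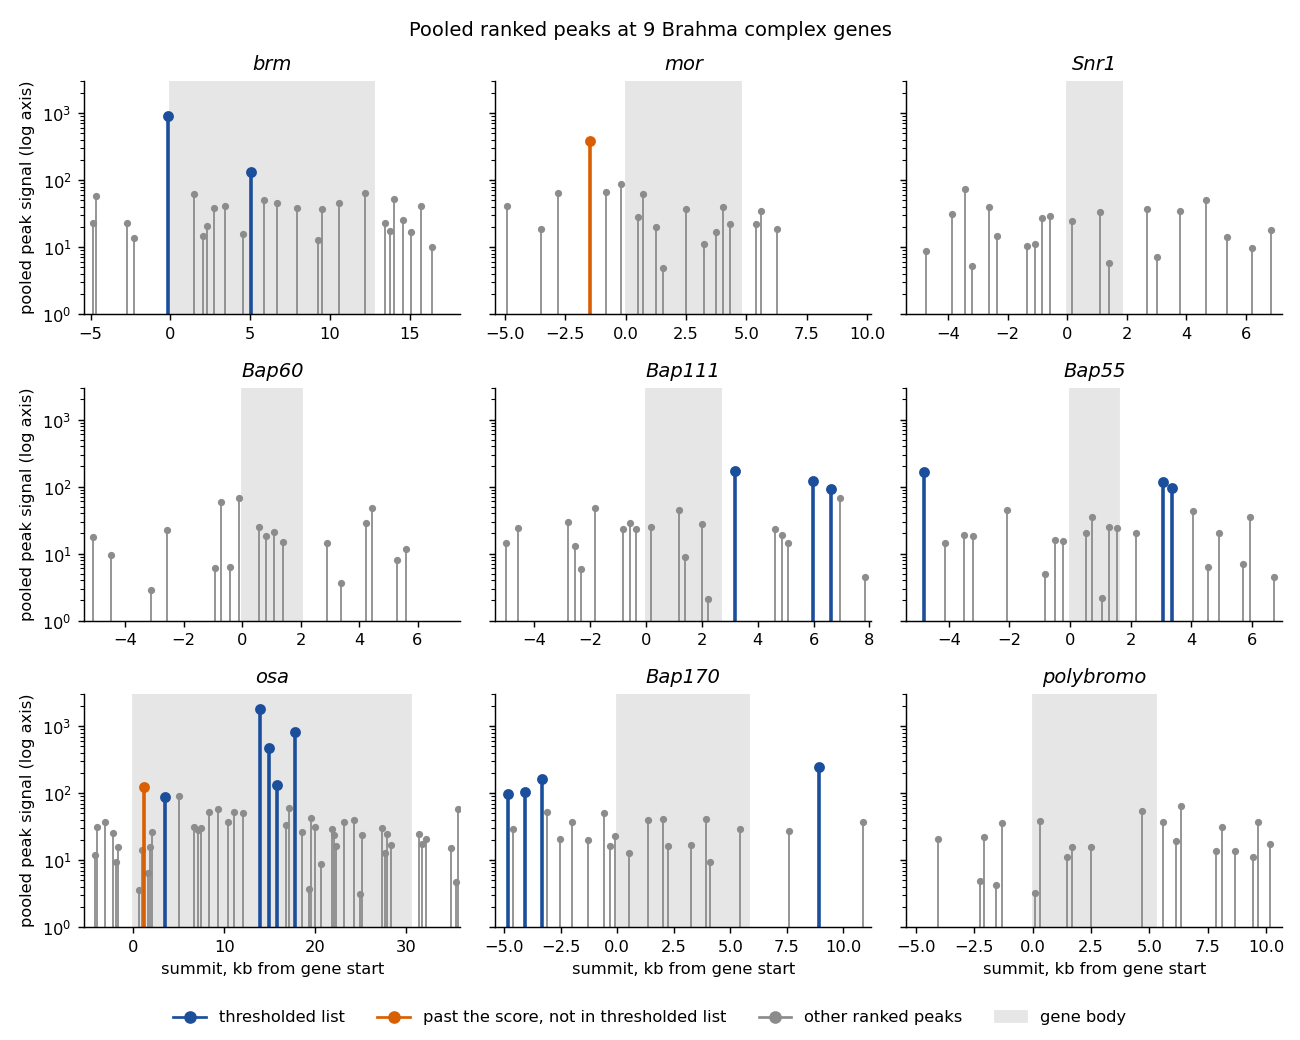
Signal of each peak of the pooled ranked list (log axis) against the distance of its summit from the start of each of the 9 genes, in kb along the direction of transcription. Blue marks peaks also in the thresholded list, orange marks peaks past the score of 830 that the thresholded list lacks, grey marks the other ranked peaks and the shaded band is the gene body. The osa gene holds a group of tall peaks between 13 and 18 kb, brm has its tallest at the start, and Snr1, Bap60 and polybromo have grey peaks only.

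The ATPase gene brm (chr3L:15970082-15982869, minus strand, 12788 bp) had a strong peak at its start and a weaker one inside. The start peak at chr3L:15982876-15983153 had a pooled signal of 908 and replicate signals of 530 (replicate 1) and 383 (replicate 2). It ranked 121 of the pooled, 119 of the replicate 1 and 129 of the replicate 2 thresholded list, so both replicates placed it near the top. Its summit lay 134 bp upstream of brm and 132 bp upstream of Arl1, a gene for an ARF-like GTPase that runs the other way. A site between these 2 start sites cannot be assigned to either gene by position. The second peak at chr3L:15977593-15977976 lay in introns of brm and of the nested gene CG17029, 739 bp upstream of CG17028, another gene nested in brm. Its pooled signal was 131, beside 55.4 in replicate 1 and 68.1 in replicate 2. The thresholded list of replicate 1 also held a peak at chr3L:15976720-15977099, 40 bp into CG17029, with a signal of 49.4 and a score of 861. No thresholded list of replicate 2 or of both replicates held that site, and its score in the replicate 2 ranked list was 111.

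The core subunit gene mor (chr3R:15968134-15972913, minus strand), which encodes a scaffold protein of the SWI3 type, had no peak in any of the 4 thresholded lists. It did have a strong peak in all 4 ranked lists, at chr3R:15974308-15974539. This peak had a signal of 376 and rank 770 in the pooled ranked list, with signals of 253 in replicate 1 and 121 in replicate 2. Its score was the limit of 1000 in all 4 ranked lists, above the lowest score of 830 in the thresholded lists. The summit lay 1493 bp upstream of mor in an intron of Hel89B, 1108 bp into that neighbouring gene, which encodes an ATPase of the Mot1 type. A weaker ranked peak with a signal of 85.8 lay at chr3R:15972900-15973283. Its summit was 179 bp upstream of mor, between the mor start and that of Hel89B (chr3R:15973298-15983451, plus strand). The score of this peak was 913 in the conservative ranked list and 660 in the pooled one.

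The mor peak belonged to a small class of peaks. In the pooled ranked list 8628 peaks scored 830 or more, and 185 of them (2.14%) were not in the thresholded list. A ranked osa peak at chr3R:17717017-17717400, 1141 bp into osa, was another of the 185, with a signal of 125 and a score of 1000. Its signals were 64.8 in replicate 1 and 74.3 in replicate 2, both with a score of 1000. With these peaks counted, 6 of the 9 genes had a peak, against 56.0% of all coding genes. The deposited readme texts trace the thresholded lists, but not the ranked ones, to 1 further file whose content they do not describe, and its part in these absences was not tested.

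Snr1 (chr3R:5470926-5472754, plus strand), the SNF5-type core subunit, had no thresholded peak. Its strongest ranked peak at chr3R:5467312-5467695 lay 3422 bp upstream, 274 bp before the start of POLDIP2, with signals of 74.5 in the pooled ranked list, 45.3 in replicate 1 and 22.2 in replicate 2. The pooled score of 818 was just under 830, and the conservative score was 560. Bap60 (chrX:13157445-13159508, minus strand), a core subunit of the BAF60 type, had a peak in the conservative thresholded list alone, at chrX:13159413-13159796. The summit lay 97 bp upstream of Bap60 and 1 bp into the divergent gene CG12096. Signals there were 68.1 in the lists of both replicates, 39.6 in replicate 1 and 34.8 in replicate 2. The same peak scored 898 in the conservative list, 644 in the pooled ranked list, 466 in replicate 1 and 303 in replicate 2, so only 1 of the 4 lists placed it past 830.

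Bap111 (chrX:9149309-9151976, plus strand), a core subunit with an HMG domain also called dalao, had 3 peaks, all downstream. The nearest at chrX:9152289-9152672 had its summit 505 bp past the gene's end, between Bap111 and His3.3B, a gene for the histone variant H3.3. The peak itself ran into the end of His3.3B (chrX:9152523-9156669, minus strand). Its pooled signal was 168, beside 94.6 in replicate 1 and 74.5 in replicate 2. The other peaks at chrX:9155079-9155462 and chrX:9155753-9156136 lay 259 and 332 bp upstream of start sites of His3.3B, with pooled signals of 121 and 93.6. The peak of 121 had a thresholded partner in both replicates, with signals of 78.2 and 55.0. The peak of 93.6 had one in replicate 1 only, with a signal of 60.2. No thresholded peak lay in Bap111 or within 500 bp of its start.

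Bap55 (chr2R:17429353-17430963, minus strand), which encodes the actin-related subunit, had 3 peaks, none inside it. Overlapping peaks at chr2R:17427405-17427788 and chr2R:17427690-17428073 lay downstream, at the divergent starts of CG6550 and Mtap, a methylthioadenosine phosphorylase gene. Their pooled signals were 95.6 and 116. Replicate 1 had 1 thresholded peak across both, with a signal of 72.5. Replicate 2 had 2 there, of 44.9 with its summit 58 bp from that of the peak of 95.6 and of 64.2 with its summit 44 bp from that of the peak of 116. The pooled peaks thus share their support in replicate 1 but not in replicate 2. The peak at chr2R:17435584-17435967 lay 4813 bp upstream in an intron of EDTP, a lipid phosphatase gene, with a pooled signal of 163, beside 97.8 in replicate 1 and 67.6 in replicate 2.

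The gene osa (chr3R:17687818-17718350, minus strand, 30533 bp), whose ARID-domain product marks the BAP form, had the strongest peak of the set. The strongest of all, at chr3R:17704226-17704668, had a pooled signal of 1778 and replicate signals of 1007 (replicate 1) and 771 (replicate 2). It ranked 15 in the pooled list, in the conservative list and in each replicate's thresholded list. Its summits in the lists of replicates 1 and 2 lay 0 and 6 bp from the pooled summit. The next osa peak, at chr3R:17700401-17700754, was weaker than the brm start peak of 908. Its pooled signal was 826 (rank 147), beside 532 (rank 118) in replicate 1 and 291 (rank 217) in replicate 2. The peak at chr3R:17703325-17703645 had a pooled signal of 468 (rank 503), beside 360 (rank 290) in replicate 1 and 107 (rank 1441) in replicate 2. All of these were in the thresholded lists of both replicates, but the replicates placed the last of them far apart in rank.

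The other osa peaks were weaker and less supported. The peak at chr3R:17702411-17702794 had a signal of 131 in the pooled list and 103 in replicate 1, and in replicate 2 it was in the ranked list alone, with 29.7. The peak at chr3R:17714731-17715114 had 86.9 in the pooled list and was in neither replicate's thresholded list. Its ranked signals were 48.7 and 38.2, with scores of 804 and 713, under 830 in both replicates. A conservative-list peak at chr3R:17701030-17701413 scored 848 there and 807 in the pooled ranked list. A replicate 1 peak at chr3R:17713045-17713424 had a signal of 67.3 and a score of 1000, while the overlapping pooled ranked peak scored 85. These weak sites differed from list to list, whereas the 3 strong ones were in every list. Replicate 1 alone gave 6 thresholded peaks at osa and replicate 2 alone gave 3.

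Of the 5 pooled osa peaks, 4 lay within 4268 bp, from chr3R:17700401 to chr3R:17704668, and the fifth lay 10497 bp away, summit to summit. The strongest held 54.0% of the summed signal of the 5. A stretch of this length with 4 or more peaks was opened by 489 of the 8443 pooled peaks (5.79%), counted after the osa group had been seen. The group lies deep inside osa, 13924 to 17793 bp from the only annotated start site of its 6 transcripts, and overlaps a pair of non-coding RNA genes transcribed in the opposite direction. The strongest summit lay 731 bp into lncRNA:CR46035 (chr3R:17703695-17705581), in its exon. The 468 peak lay 198 bp upstream of the start of that gene, and the 826 peak lay 184 bp upstream of lncRNA:CR46036 (chr3R:17700741-17701873). Both therefore fell in the promoter class of a non-coding gene and in an intron of osa. Holding 5 peaks or more was shared by 5.49% of all coding genes and by 23.7% of genes of at least 8000 bp.

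**Figure D2:**
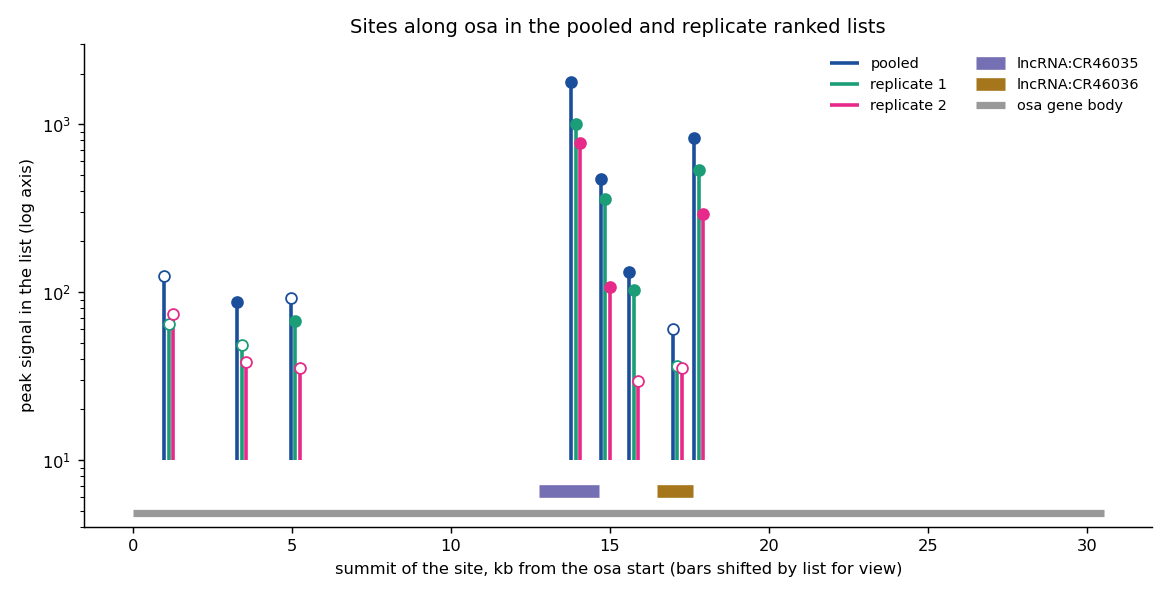
Signal (log axis) of 8 sites along osa in the pooled and the 2 replicate ranked lists against distance from the osa start in kb, with bars of the 3 lists shifted sideways for view. Filled circles mark sites that overlap a thresholded peak of that list, open circles those that do not, and the strips below show osa and the 2 non-coding genes. The sites with 1778, 826 and 468 in the pooled list are filled in all 3 lists, and the others are open in at least 1.

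The PBAP subunit genes differed from each other. Bap170 (chr2R:6636512-6642358, plus strand), which encodes an ARID-domain subunit, had 4 pooled peaks, none inside the gene. The strongest at chr2R:6645393-6645545 lay 3093 bp past its end and 353 bp upstream of Fmo-2, a flavin monooxygenase gene, with a pooled signal of 244, beside 163 in replicate 1 and 59.1 in replicate 2. The other 3 lay 3328 to 4816 bp upstream of Bap170 at Vha16-1, a gene for the membrane-sector subunit of the vacuolar ATPase, with pooled signals of 161, 105 and 96.6. The weakest of them was in the thresholded list of replicate 1, with 71.2, but not in that of replicate 2, where its ranked signal was 29.2. Its pooled score of 936 was the lowest among the 17, and the others scored 1000. The gene polybromo (chr3R:24799967-24805259, minus strand), which encodes the subunit with several bromodomains, had no thresholded peak. Its strongest ranked peak at chr3R:24798724-24799107 lay 1051 bp past its end in an intron of Ude, with a pooled signal of 64.2, beside 40.0 in replicate 1 and 13.5 in replicate 2. The scores of that peak were 107 (pooled), 121 (conservative), 352 (replicate 1) and 35 (replicate 2), all under 830. The nearest thresholded peak, at chr3R:24810950-24811197, lay 5691 bp upstream of polybromo and 691 bp outside its window, with a pooled signal of 505.

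Ranked lists let all 9 genes be ordered, since each window held between 18 and 50 pooled ranked peaks. The strongest peak was taken in each list separately, so it can be a different site from list to list. The strongest osa peak stood at 0.0185% of the pooled ranked list, 0.0186% of the conservative, 0.0198% of the replicate 1 and 0.0218% of the replicate 2 ranked list. For brm these shares were 0.131%, 0.131%, 0.145% and 0.172%, and for mor 0.791%, 0.796%, 0.707% and 1.60%. The order of osa, brm and mor at the top was the same in all 4 lists. Behind them Bap170 stood at 1.63% in the pooled list and at 1.54% in replicate 1, but at 3.86% in replicate 2, behind Bap111 (3.31%) and Bap55 (3.85%). That replicate 2 value belongs to a peak at Vha16-1 with a signal of 67.4. The peak near Fmo-2, strongest in the pooled list and replicate 1, had 59.1 and rank 3637 in the replicate 2 ranked list. Bap111 and Bap55 were close in every list, at 2.79% and 2.93% in the pooled list, and changed places in replicate 1. Snr1, Bap60 and polybromo stood at 8.41%, 9.57% and 10.4% in the pooled list. Their order changed in replicate 2, where they stood at 19.1%, 10.1% and 15.7%. For Snr1 and polybromo these were other sites, with replicate 2 signals of 24.7 and 27.3. Their strongest pooled peaks had 22.2 and 13.5 there, at ranks 18595 and 42420. These 3 genes could therefore not be ordered beyond the difference between replicates.

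**Figure D3:**
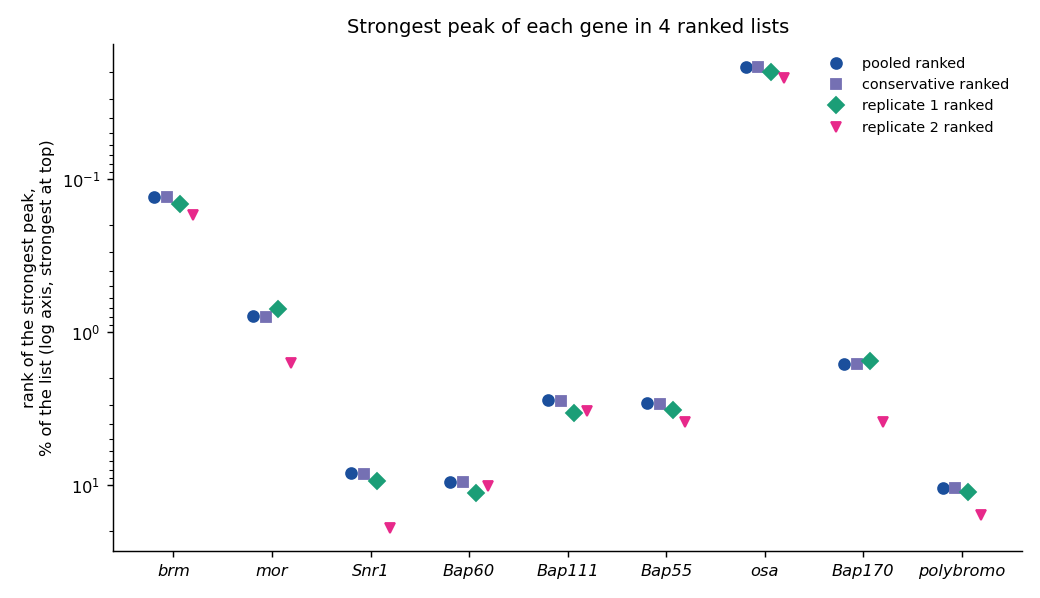
Rank of the strongest peak in each gene's window as a percent of the list (log axis, strongest at the top) in the pooled, conservative, replicate 1 and replicate 2 ranked lists. The strongest peak was taken in each list separately and can be a different site. The markers of osa, brm and mor stay apart from each other in every list, while those of Bap111 with Bap55 and of Snr1 with Bap60 and polybromo overlap.

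Of the 17 pooled peaks, 13 overlapped a thresholded peak of both replicates, 3 of replicate 1 alone, 0 of replicate 2 alone and 1 of neither. Over the whole pooled list 51.1% of peaks had partners in both. Support followed rank in the list as a whole, with 99.8% of the 1000 strongest peaks, 85.7% of the next 3000 and 16.8% of the other 4443 found in both replicates. The peaks of the complex counted 4 of 4, 5 of 6 and 4 of 7 in the same bands. The 7 in the last band had ranks from 4199 to 6273, in the stronger part of a band from 4001 to 8443. The overlapping Bap55 peaks among them also shared their replicate 1 partner, so 4 of 7 and 16.8% are not like for like. The ratio of replicate 1 to replicate 2 signal had a median of 1.40 over the 17, with a range of 0.814 at the inner brm peak to 3.48 at the osa peak of 131. Over the 8322 pooled peaks with a ranked partner in both replicates the median was 1.38 and the central 95% ran from 0.655 to 3.31. The osa peaks with ratios of 3.48 and 3.35 lay above that range, but inside the range of 0.478 to 3.88 found when the partner with the nearest summit was taken in place of the strongest.

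**Figure D4:**
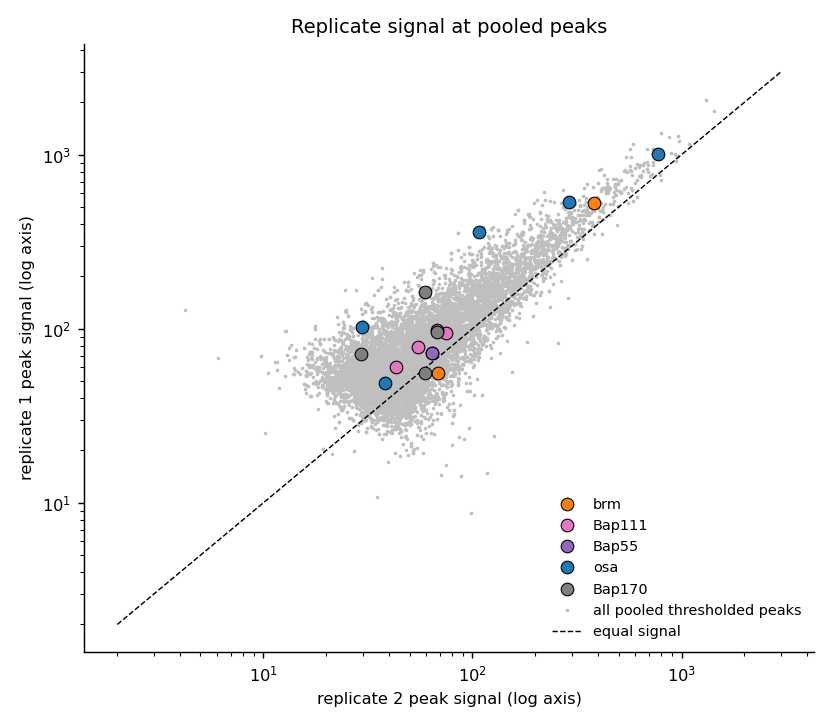
Signal in replicate 1 against signal in replicate 2 (both log axes) at the pooled thresholded peaks, coloured for the 5 genes of the complex that have any and grey for all others, with a dashed line of equal signal. Points of the complex lie within the grey cloud or at its upper edge, and the inner brm peak and 1 Bap170 peak lie under the line.

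Set beside all coding genes, the strongest pooled ranked peak of the 9 ran from the top of the distribution to its middle. Only 60 of 13945 genes (0.430%) had a peak as strong as that of osa, and 366 (2.62%) one as strong as that of brm. The share was 12.2% for mor, 20.4% for Bap170, 29.8% for Bap111 and 30.7% for Bap55. It was 55.9% for Snr1, 59.5% for Bap60 and 61.7% for polybromo, which puts these 3 below the median gene. Among genes of similar length the shares were 0.559% for osa, 4.30% for brm, 12.8% for mor, 21.7% for Bap170, 26.5% for Bap111 and 27.4% for Bap55. They were 52.7% for Snr1, 56.2% for Bap60 and 69.6% for polybromo. The median over the 9 was 168, against 104 over the coding genes with a ranked peak in their window. The shares above are of all coding genes, with or without such a peak. Since the set was chosen with the osa peak in view, the median is no measure of the complex as a whole. The pooled signal of the strongest osa peak was 1.96 times that of the strongest brm peak and 2.15 times that of the next osa peak.

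**Figure D5:**
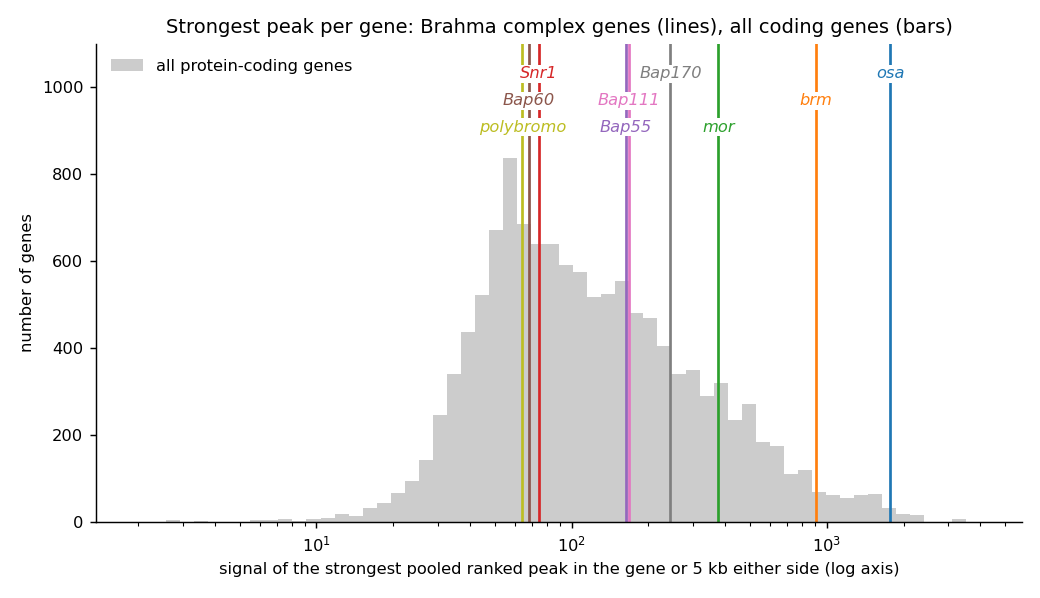
Number of protein-coding genes by the signal of the strongest pooled ranked peak in the gene or 5 kb either side (bars, log horizontal axis), with the 9 genes of the complex as labelled lines. The lines of osa (1778) and brm (908) fall in the right tail, and those of Snr1 (74.5), Bap60 (68.1) and polybromo (64.2) fall near the peak of the bars.

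The peaks next to the osa site in rank were at promoters. Just above it stood promoter peaks of Tcs5 (1837) and of the small heat shock protein gene Hsp27 (1827), and just below it those of Fkbp14 (1769) and of the mitochondrial ribosomal protein gene mRpL41 (1731). These 4 summits lay 105 to 149 bp from the start of the named gene, unlike the osa summit, which lay 13924 bp from the nearest coding start. A further list held 25 genes of other remodelling complexes and 4 other partners of the Brahma complex (Act5C, e(y)3, Brd7-9 and BCL7-like). Of the 25, 16 (64.0%) had a pooled thresholded peak, as did all 4 partners, against 55.5% of all coding genes. The strongest of the list stood at Caf1-55 (1585, rank 24), a histone-binding subunit gene, with 871 in replicate 1 and 729 in replicate 2, though its summit was 128 bp from the start of mRpS10. Next came Act5C (969), an actin gene whose product is also a Brahma subunit, then simj (651), a NuRD subunit gene, and XNP (524), the ATRX-type remodeller. The Act5C summit was in an intron, 4690 bp from the Act5C start, and the simj summit was 1027 bp from the simj start. The summit of the XNP peak was 191 bp from the start of Fur1. The osa peak was higher than all of these, and the brm peak of 908 stood between those of Act5C and simj.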

How the data were processed

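The authors deposited 8 peak lists on dm6, and the labels give the build, the biological replicate numbers and sonication as the fragmentation method. No source used here names the aligner or the caller. Each peak carries a score up to 1000 that the authors set from the IDR, a signal value of unstated scale in the deposited lists, and a summit offset in bp from the peak start, per the deposited format. The conservative list is so called in its deposited name. Ranks were computed within each list by signal, and the lists hold no read counts, so intervals that need depth are not given. Genes came from Ensembl release 115 and sequence from Release 6 of the NCBI assembly, where 0 peaks lay beyond a chromosome end. Transposable elements were left out. A summit within 500 bp of any annotated start site was called promoter, then exon, intron or intergenic. Replicate signals were taken from the strongest overlapping peak of each replicate's own list, so adjoining peaks can share a partner. The 2 ranked lists of both replicates hold 16 further columns on the compared lists with no sample named, which were not used. The genes, words and other lists were chosen with earlier results of these data known. Genes named are the 9, those nearest to or holding their summits, the 4 peaks next in rank to the strongest, and the 4 of 29 further remodeller and partner genes with the strongest peaks. No test was run, because there is 1 group and the choice used the peak values. Counts were made in Python 3.11.15 with pandas 2.3.3 and numpy 2.4.6, figures with matplotlib 3.10.9, and the overlap code was tested on simulated data. Alternatives were the other lists, other windows and overlap rules, and all annotated genes.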

Additional observations from a re-analysis of the deposited data

How the results depend on the processing

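With the gene body alone, 2 of the 9 genes had a peak, with 6 peaks in all, against 22.8% of coding genes. With 1 kb either side it was 3 genes and 8 peaks, against 34.3%, and with 10 kb it was 7 genes and 26 peaks, against 70.4%. The stronger 50% of the pooled list by signal had peaks at 5 genes, with 11 peaks, against 39.4% of coding genes. The share among all annotated genes was 52.6%. From each replicate alone, the genes with a peak numbered 5 and 5, the peaks 13 to 19, the osa peaks 3 to 6, and the share of coding genes 44.9% to 48.7%. The strongest osa peak stood at 0.178% of the pooled list, at 0.236% to 0.274% of the replicate lists, at 0.355% of the stronger 50% of the pooled list and at 0.209% of the pooled ranked peaks scoring 830 or more, an alternative chosen after seeing the data. Its rank by count was 15 in the pooled list and in each replicate list. Taking the replicate partner with the nearest summit, also chosen after seeing the data, gave a median ratio of 1.42 over the 17 peaks, against 1.40. Peaks supported by both replicates numbered 13, or 12 with at least 50% of the peak covered and 12 with summits within 100 bp. No paired analysis was possible because there is 1 group.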

Other observations

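The peaks past a score of 830 that the thresholded lists lack were unevenly spread. Of the 185 in the pooled ranked list, 117 (63.2%) were on chromosome arm 3R, which held 22.4% of the pooled thresholded peaks, and 43 were on 2L. Along the chromosomes they formed 72 runs uninterrupted by a kept peak of that score, of which 32 were single peaks and the longest had 11. Their median signal was 119, and the highest was 2306. The corresponding lists lacked 178 peaks in the conservative case, 149 in replicate 1 and 128 in replicate 2. The ranked peaks 1493 bp upstream of mor and 1141 bp into osa were each a run of 1, and the cause was not tested.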
